A study of Mus musculus with 40 samples.

Results

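Genes of the regulators of G protein signalling were followed in a mouse melanoma model, in cultured cells and in tumours, with and without drugs that act on chromatin. The members are 10 genes, Rgs1, Rgs2, Rgs3, Rgs4, Rgs5, Rgs10, Rgs14, Rgs16, Rgs18 and Rgs19, taken as every probe set of the table that maps to 1 of these symbols alone. They were measured by 23 of the 45141 probe sets and make up 10 of the 17097 genes so named. Rgs1 was selected on its measured fall in OTX015-treated tumours, so that difference, and the other differences that use the same tumours, are described for Rgs1 with no test. For the other 9, no measured value is stated to have entered the choice.

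A G protein-coupled receptor makes the alpha subunit of its G protein take up GTP, and the signal lasts until that GTP is hydrolysed. RGS proteins bind the active alpha subunit and speed up this hydrolysis, so they shorten and weaken signals of receptors for chemokines, lipids, hormones and neurotransmitters. They differ in the tissue that makes them: Rgs1, Rgs10, Rgs18 and Rgs19 are known from blood and immune cells, with Rgs18 prominent in platelets, while Rgs5 is a widely used marker of pericytes, the contractile cells around small vessels.

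RNA was measured on 40 Affymetrix arrays with a 3′ labelling kit, from 500 ng of total RNA per sample. B16F10, an established melanoma line of C57BL/6 origin, was grown in culture without drug (4 samples) or with OTX015 (4 samples), which blocks the bromodomains with which BET proteins read acetylated histones. The same line was injected under the skin of C57black6J mice aged 8 weeks, and tumours came from an OTX015 experiment with 11 untreated samples and 10 from mice given OTX015 by mouth, and from a guadecitabine experiment with 5 untreated samples and 6 from mice given guadecitabine into the peritoneum. Guadecitabine is a prodrug of decitabine, which inhibits DNA methyltransferases. No genetic change is stated for cells or mice, and every tumour grew from this 1 line in hosts whose own cells remain in the sample. Doses, treatment times and the sex of the mice are not given in the labels. They do not say whether replicates were separate cultures or animals, so the p-values measure only the spread between these samples, which may be technical.

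Levels are log2 values after all 40 arrays were brought to 1 distribution, and each gene is given by its brightest probe set. The background was 4.47, the 95th percentile of the means of 83 olfactory and vomeronasal receptor probe sets. Before that step the 10 arrays of OTX015-treated tumours had means of 4.35 to 4.39 and the other 30 had means of 4.55 to 4.64. Of 12 melanocyte markers, 11 or 12 lay above background in each of the 6 groups. Of 12 macrophage and monocyte markers, 1 did so in cells and 9 or 10 in each tumour group, whereas 14 of 15 T and NK cell markers lay below it in every group. Untreated tumours 9 and 11 of the OTX015 experiment and treated tumour 4 had the narrowest spread of values over the array. Their SDs were 1.80 to 1.85, against 1.90 or more in the rest of that experiment, and they are called the 3 arrays of narrow spread. Guadecitabine-treated tumours 3 and 6 came next, with SDs of 1.88 and 1.89, and were not left out with them. Calls and relations that changed without the 3 arrays of narrow spread are given both ways.

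By their mean over the 40 arrays, 5 of the 10 members lay above background, namely Rgs1, Rgs3, Rgs10, Rgs14 and Rgs19. Rgs3, Rgs10, Rgs14 and Rgs19 were above it on every array of every group. Rgs16 was above background on all 8 cell arrays and on none of the 32 tumour arrays. Rgs1 showed the opposite distribution, with 0 of 8 cell arrays and 27 of 32 tumour arrays above background. Rgs18 stayed below background on all 40 arrays, so the differences given for it are between dim values. Levels of different genes are not compared here, because probe sets differ in how brightly they hybridise.

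**Figure D1:**
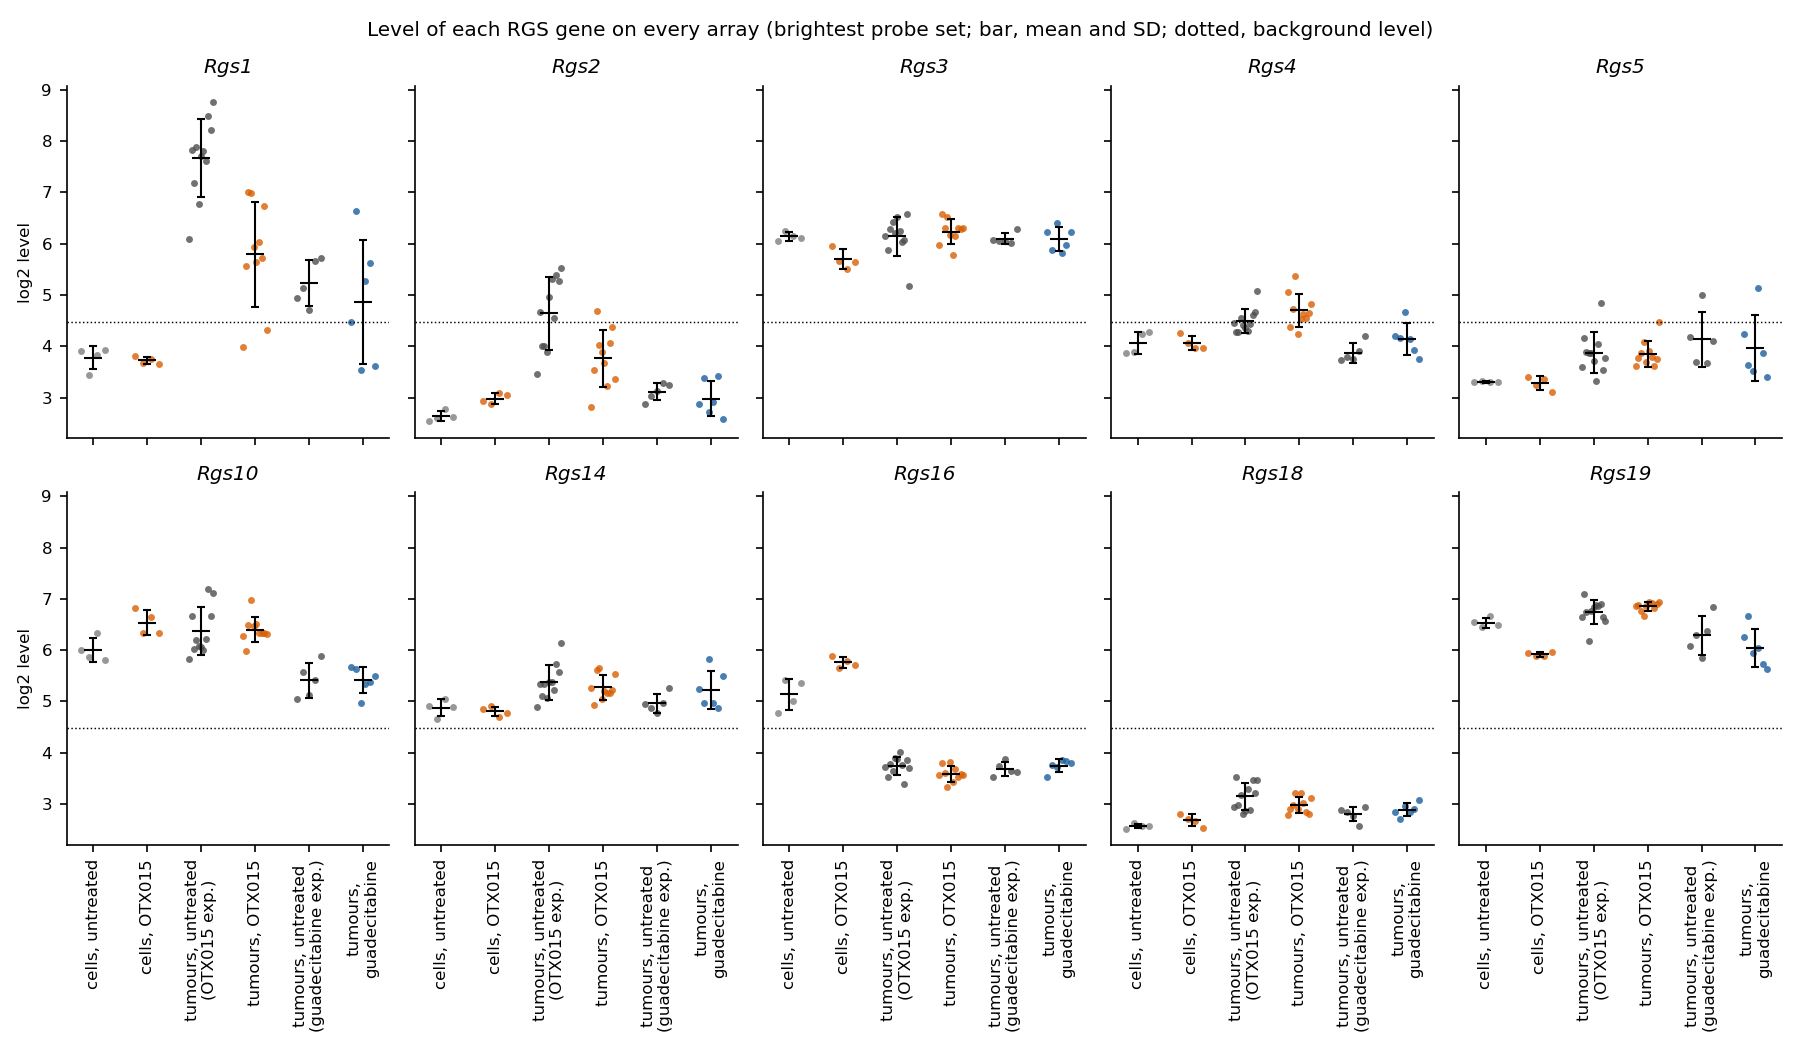
Log2 level of each RGS gene (vertical axis) on every array in the 6 groups (horizontal axis), with the group mean and SD as a bar and the background of 4.47 as a dotted line. Rgs1 lies below the line on all cell arrays and reaches 8.76 in untreated tumours, and Rgs16 lies above it in cells only.

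OTX015 in cultured cells asks which RGS genes respond to BET inhibition with no host cells present. Rgs2, Rgs10 and Rgs16 rose, and Rgs3 and Rgs19 fell. These 5 of 10 members passed an adjusted p of 0.05 in limma's test, where 39.6% of all 17097 genes passed, 18.8% higher and 20.8% lower. The share of members called was therefore near that of genes at large, and the median difference of the members was −0.02 on the log2 scale against 0.00301 for all genes.

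Rgs16, a member that is induced by inflammatory signals and acts on Gi and Gq, read 4.77, 5.42, 5.00 and 5.35 in untreated cells and 5.89, 5.65, 5.78 and 5.71 with OTX015. All treated samples lay above all untreated ones, and the log2 difference was 0.62 ± 0.13 (SE, limma adjusted p = 0.00131, n = 4 and 4). Its other probe set moved the opposite way, by −0.38 (adjusted p = 0.0418 over all probe sets), with a mean of 4.51 in untreated and 4.12 in treated cells. With the mean of both probe sets the difference was 0.12 and the adjusted p was 0.403, so the direction for Rgs16 depends on the probe set.

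Rgs10, which acts on Gi and is abundant in microglia and macrophages, read 5.99, 5.87, 6.33 and 5.80 in untreated cells. With OTX015 it read 6.83, 6.33, 6.64 and 6.33. The groups did not overlap, though the highest untreated sample reached 6.33, the value of the lowest treated ones at this rounding, and the difference was 0.53 ± 0.13 (SE, adjusted p = 0.00492). Rgs2, a regulator with a preference for Gq, read 2.54, 2.61, 2.78 and 2.62 without drug and 2.93, 2.87, 3.08 and 3.05 with it. The groups did not overlap (0.34 ± 0.078, adjusted p = 0.00288), but all 8 arrays were far below background, so no fold is given.

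Rgs19, also known as GAIP for its binding to a Gi alpha subunit, read 6.54, 6.44, 6.67 and 6.49 in untreated cells. It read 5.95, 5.89, 5.88 and 5.97 in OTX015-treated cells. This was the member with the smallest adjusted p, 1.12e-05, with a log2 difference of −0.61 ± 0.071 (a 1.53-fold lower level), and its second probe set gave −0.68 (adjusted p = 0.000154). Rgs3, a regulator with several isoforms that acts on Gi and Gq, read 6.05, 6.24, 6.16 and 6.11 against 5.96, 5.66, 5.50 and 5.65. The difference was −0.45 ± 0.095 (adjusted p = 0.00173), a second probe set fell by 0.70 (adjusted p = 0.0135), and the other 2 gave 0.02 and −0.05 (adjusted p = 0.91 and 0.65). Which transcripts each Rgs3 probe set reads is not given in the files.

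The other 5 members did not pass in cells. Rgs1 read 3.90, 3.45, 3.83 and 3.92 without drug and 3.81, 3.66, 3.76 and 3.66 with it, overlapping and below background throughout. Its difference was −0.05, with a 95% interval from −0.27 to 0.17 (adjusted p = 0.758). The differences of Rgs4, Rgs5, Rgs14 and Rgs18 ranged from −0.07 to 0.11. When all 6 groups shared 1 estimate of the spread, Rgs16 and Rgs19 still passed, while Rgs2, Rgs3 and Rgs10 did not (adjusted p = 0.564, 0.0674 and 0.0846).

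The promoters of Rgs2, Rgs10 and Rgs16 are shown because these are the members called higher with OTX015 in cells that hold no host tissue, Rgs16 by its brightest probe set alone. They are the 250 bases before the RefSeq start (build GRCm38.p6), 5′ to 3′ on the gene's own strand, with Rgs2 at chr1:144004150-144004399 on the minus strand, Rgs10 at chr7:128418173-128418422 on the minus strand and Rgs16 at chr1:153740103-153740352 on the plus strand. Capitals mark matches on either strand to the letters GGGCGG (known as the GC box), to those of the box named CCAAT, and to TGACG, which is part of a cAMP response element. The full element TGACGTCA, a TATA box (TATAAA) and an E box (CACGTG) were also searched.
Rgs2: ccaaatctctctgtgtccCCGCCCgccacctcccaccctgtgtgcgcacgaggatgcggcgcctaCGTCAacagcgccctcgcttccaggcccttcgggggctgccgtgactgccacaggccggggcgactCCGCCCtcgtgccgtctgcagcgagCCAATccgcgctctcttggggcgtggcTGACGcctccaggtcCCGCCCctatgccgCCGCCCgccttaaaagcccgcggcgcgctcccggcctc
Rgs10: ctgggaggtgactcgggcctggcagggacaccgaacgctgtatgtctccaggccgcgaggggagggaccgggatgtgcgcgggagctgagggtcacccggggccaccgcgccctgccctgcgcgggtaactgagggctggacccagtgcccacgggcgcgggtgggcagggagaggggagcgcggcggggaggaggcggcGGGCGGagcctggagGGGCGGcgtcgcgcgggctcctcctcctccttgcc
Rgs16: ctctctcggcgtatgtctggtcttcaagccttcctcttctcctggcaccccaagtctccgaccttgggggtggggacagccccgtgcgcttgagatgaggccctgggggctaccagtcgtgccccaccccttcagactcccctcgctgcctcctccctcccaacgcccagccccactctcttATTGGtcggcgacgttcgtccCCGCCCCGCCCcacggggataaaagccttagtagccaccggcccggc
The promoter of Rgs2 held 4 GC boxes, 1 CCAAT box and 2 matches to TGACG, and that of Rgs16 held 2 GC boxes that overlap by 1 base and 1 CCAAT box. Rgs10 held 2 GC boxes. Of all 32851 RefSeq promoters of this length, 32.7% held a GC box, 33.8% a CCAAT box and 17.8% TGACG, so these matches are common. A TATA box was present in 12.4%, an E box in 6.02% and TGACGTCA, which contains TGACG, in 1.55%. The GC content was 72.4% for Rgs2, 76.4% for Rgs10 and 66.4% for Rgs16, against a median of 52.4%. Of the 10 members, 7 matched a promoter entry, and the entries for the 2 members that fell also held GC boxes, in at least 1 entry each. Rgs1, Rgs14 and Rgs18 had none here. Rgs2, Rgs1 and Rgs18 lie in 1 row of RGS genes on chromosome 1, in the order Rgs2, Rgs13, Rgs1, Rgs21 and Rgs18. Rgs5 and Rgs4 are neighbours on that chromosome too, and Rgs16 lies next to Rgs8.

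Of 117 measured genes in 8 lists of the pathway, 12 were higher and 18 lower with OTX015 in cells, 25.6% called where 39.6% of all genes were. Of 15 measured G protein beta and gamma subunit genes, 1 was higher and 7 were lower with OTX015 (median −0.27, against 0.00301 for all genes). Gng11 fell by 2.72 ± 0.099 (SE) and Gnb4 by 1.59 ± 0.081. Among 15 alpha subunit genes 3 were higher and 2 lower: Gnai2, whose product is a main partner of RGS proteins in leukocytes, rose by 0.95 ± 0.11, Gna11 of the Gq class rose by 0.93 ± 0.087, and Gnal fell by 1.53 ± 0.097. Among 12 genes of proteins with a distant RGS-like domain 4 were higher and 0 lower, with Grk5, a receptor kinase, at 1.59 ± 0.076. Of 10 genes of RGS binding partners and other proteins acting on alpha subunits, 2 were higher, including Gpsm1 (0.70 ± 0.093), and 3 lower, including the exchange factor Ric8a (−0.70 ± 0.12). Of 11 further RGS genes measured, Axin1 was higher (0.32 ± 0.07) and Rgs11 lower (−0.34 ± 0.071). Of 16 effector genes 1 was higher and 3 lower, of 25 leukocyte receptors that couple to Gi 0 were called, and of 13 receptors of vessels and melanocytes 0 were higher and 2 lower. Each named gene passed the same test, with an adjusted p of 0.00218 or less.

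Untreated tumours were set against untreated cells, which differ in their host cells and also in growth in the animal or in culture. Rgs2, Rgs4, Rgs5, Rgs14 and Rgs18 were higher in tumours and Rgs16 was lower. These 6 of the 9 members tested compare with 42.1% of all genes called, 21.7% higher and 20.4% lower, and the median of the 9 was 0.42 against 0.025 for all genes. In bulk tissue, fewer cells of a type and less RNA per cell cannot be told apart. The 11 untreated tumours used are those from which Rgs1 was chosen, so its values against cells are given with no test.

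Rgs1, a member induced in activated B cells, T cells and myeloid cells that dampens chemokine receptors, ranged from 6.08 to 8.76 with a median of 7.80 in these 11 tumours, against 3.45 to 3.92 in the 4 untreated cell samples. No tumour overlapped the cells. The measured difference was 3.89 ± 0.35 (SE), and because all cell arrays were below background it stands for a level at least 9.15-fold higher in these tumours. In the 5 untreated tumours of the guadecitabine experiment, which did not enter the choice of Rgs1, the difference from cells was 1.46 ± 0.21 (adjusted p = 0.000266).

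Rgs16 ranged from 3.39 to 4.02 with a median of 3.75 in the 11 tumours, below all 4 untreated cell samples. The difference was −1.39 ± 0.12 (adjusted p = 1.99e-07), and as every tumour array was below background the level in tumours was at least 1.58-fold lower. Its second probe set was lower too (−0.93, adjusted p = 7.2e-05), and the guadecitabine experiment's untreated tumours gave −1.46 ± 0.13 (adjusted p = 1.50e-05). Rgs16 is the 1 member that was brighter in the cultured line than in either set of untreated tumours and above background there.

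Rgs2 ranged from 3.46 to 5.52 with a median of 4.68 in tumours and was above background in 7 of 11. It lay above all cell samples, by 2.00 ± 0.33 (adjusted p = 0.000163), at least 1.12-fold once the cells are set at background. The guadecitabine experiment's untreated tumours differed from cells by 0.48 ± 0.094 (adjusted p = 0.00232), all below background.

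Rgs14, which carries a second G alpha binding motif and a Ras binding region, ranged from 4.89 to 6.13 with a median of 5.34 in tumours, with 10 of 11 above the cell samples (0.50 ± 0.17, adjusted p = 0.0243). This call did not hold without untreated cell sample 1, 2 or 4 (adjusted p from 0.0108 to 0.0915 over all arrays left out), and was 0.086 (adjusted p = 0.575) with the guadecitabine experiment's controls. Rgs4, a regulator best known from brain and heart, differed by 0.42 ± 0.13 (adjusted p = 0.0137) with all cell arrays below background, at least 1.01-fold higher in tumours. The call was lost without cell sample 1 or 2 (highest adjusted p 0.0633). Against the guadecitabine experiment's controls it turned to −0.20 (adjusted p = 0.238). Rgs5 differed by 0.57 ± 0.19 (adjusted p = 0.0205), lost without cell sample 1 (adjusted p = 0.0508), with 1 of 11 tumours above background. The remaining Rgs5 probe sets gave 0.098, 0.092 and 0.12 and did not pass (adjusted p = 0.353, 0.362 and 0.207 over all probe sets). Rgs18 differed by 0.57 ± 0.13 (adjusted p = 0.00204) with all 15 arrays below background.

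Rgs3, Rgs10 and Rgs19 did not pass. Rgs3 had a mean of 6.14 in both groups, a difference of 0.002 with a 95% interval from −0.38 to 0.39. Rgs10 differed by 0.37 ± 0.22 (adjusted p = 0.201) and turned to −0.59 ± 0.17 (adjusted p = 0.0193) against the controls of the guadecitabine experiment. Rgs19 differed by 0.20 ± 0.12 (adjusted p = 0.183). Without untreated cell sample 1, 3 of the 9 members tested were called in place of 6.

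Genes of several host cell types were also higher in tumours. All 12 macrophage and monocyte markers were higher in tumours (median 3.45), with Lyz2 at 6.39 ± 0.27 and C1qa at 4.84 ± 0.35. The mean of the list was 5.82 to 7.69 in the 11 tumours and 3.60 to 3.73 in cells. Of 25 leukocyte receptors that couple to Gi, the upstream partners of RGS proteins in those cells, 17 were higher and 0 lower (median 0.39), including C3ar1 (2.23 ± 0.33) and Ccr1 (2.17 ± 0.40). Of 9 pericyte and smooth muscle markers 3 were higher and 2 lower, and Pdgfrb, Kcnj8, Higd1b, Ndufa4l2 and Myh11 were below background in tumours as Rgs5 was on 10 of 11. Of 10 platelet markers 1 was higher, Pf4 (4.17 ± 0.43), and 1 lower, Itgb3 (−0.91 ± 0.09). In tumours 4 of the 10 were above background, Pf4 and Ppbp among them, which lay below it in cells, and the other 6, with Gp9 and Gp6, were below it. Of 4 red cell markers 3 were higher (median 3.02), including Hba-a1 (6.44 ± 0.065). Markers higher in tumours numbered 6 of 9 for neutrophils and mast cells, 9 of 15 for T and NK cells and 4 of 6 for dendritic cells, with 0 lower in these 3 lists. For B cells 0 of 6 were called, for endothelium 4 of 12 were higher and 1 lower, and for fibroblasts 4 of 10 were higher and 2 lower. Many of these markers were dim in the 11 tumours. Below background lay 6 of 9 for neutrophils and mast cells, 14 of 15 for T and NK cells and 3 of 6 for dendritic cells. The same held for 8 of 12 endothelial and 8 of 10 fibroblast markers. The part of these cells in the members' differences was not tested.

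OTX015 in tumours gave a fall in Rgs1, described without a test, and in Rgs2. Rgs1 ranged from 6.08 to 8.76 with a median of 7.80 in the 11 untreated tumours and from 3.98 to 7.0 with a median of 5.83 in the 10 treated ones. The groups overlapped, and 8 of the 10 treated tumours were above background. The means differed by −1.87 ± 0.36, from 7.67 ± 0.76 (SD, n = 11) to 5.79 ± 1.02 (SD, n = 10), and by −1.79 ± 0.36 without the 3 arrays of narrow spread. Rgs1 has 1 probe set, so no second reading exists in the table.

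Rgs2 ranged from 3.46 to 5.52 with a median of 4.68 in untreated tumours and from 2.81 to 4.70 with a median of 3.78 in treated ones. Treated tumours below the mean of the untreated ones numbered 9 of 10, 3 lay below every untreated tumour, and the rest overlapped. The difference was −0.88 ± 0.26 (SE, adjusted p = 0.0241), and the treated mean of 3.77 was below background. Rgs2 was the 1 member called of the 9 tested, where 16.2% of all genes were called, 8.67% higher and 7.49% lower, which is near the share of members called. Without the 3 arrays of narrow spread the difference was −0.73 and the adjusted p was 0.064, and with arrays weighted by quality it was −0.67 and 0.0578. Leaving out any 1 array kept the call (adjusted p from 0.00821 to 0.0477). A second Rgs2 probe set also fell by 0.88 (adjusted p = 0.00275), while the third, the dimmest, was 0.19 higher (adjusted p = 0.0452).

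The other 8 members tested did not pass, with differences from −0.17 to 0.21. Rgs16 stayed below background on all 21 arrays (−0.15 ± 0.072, adjusted p = 0.164). Rgs18 differed by −0.17 ± 0.093 (adjusted p = 0.24), and its second probe set by −0.33 (adjusted p = 0.00542), both below background. Rgs19 ranged from 6.18 to 7.09 in untreated and from 6.67 to 6.94 in treated tumours (0.12 ± 0.077, adjusted p = 0.333). Rgs10 had means of 6.37 ± 0.47 and 6.40 ± 0.25 (SD, n = 11 and 10), a difference of 0.03 with a 95% interval from −0.29 to 0.35. In the values as the authors deposited them, where all genes lay lower in the treated tumours by a median of 0.21, 4 of the 9 tested were called, Rgs14, Rgs16 and Rgs18 beside Rgs2, where 55.2% of all genes were.

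Macrophage markers fell with Rgs1 and Rgs2. Of 12 measured, 8 were lower and 0 higher (median −1.01, against 0.0054 for all genes), including C1qb (−1.41 ± 0.39), C1qc (−1.20 ± 0.31) and Adgre1 (−0.94 ± 0.23). The mean of the list ranged from 5.82 to 7.69 with a median of 6.62 in untreated and from 4.60 to 6.38 with a median of 6.12 in treated tumours, and Aif1 and Cd163 were below background in both. Of 15 T and NK cell markers 4 were lower and 0 higher (median −0.12). Of the 25 leukocyte Gi receptors 5 were lower, among them C3ar1 (−0.79 ± 0.24), and 2 were higher. Of 16 effector genes of G proteins 0 were higher and 5 lower, with Plcb2 at −0.29 ± 0.053 and Adcy2 at −0.21 ± 0.057. The lists of beta and gamma subunits, of binding partners and of distant RGS-like domains each had 2 higher and 1 lower. Alpha subunits, and receptors of vessels and melanocytes, each had 1 higher and 1 lower. Over all 8 pathway lists 11 of 117 genes were higher and 16 lower, 23.1% called where 16.2% of all genes were. Of the 11 further RGS genes Axin2 was higher (0.22 ± 0.073) and Rgs11 lower (−0.27 ± 0.062). Whether the markers' fall has a part in that of Rgs1 and Rgs2 was not tested.

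**Figure D2:**
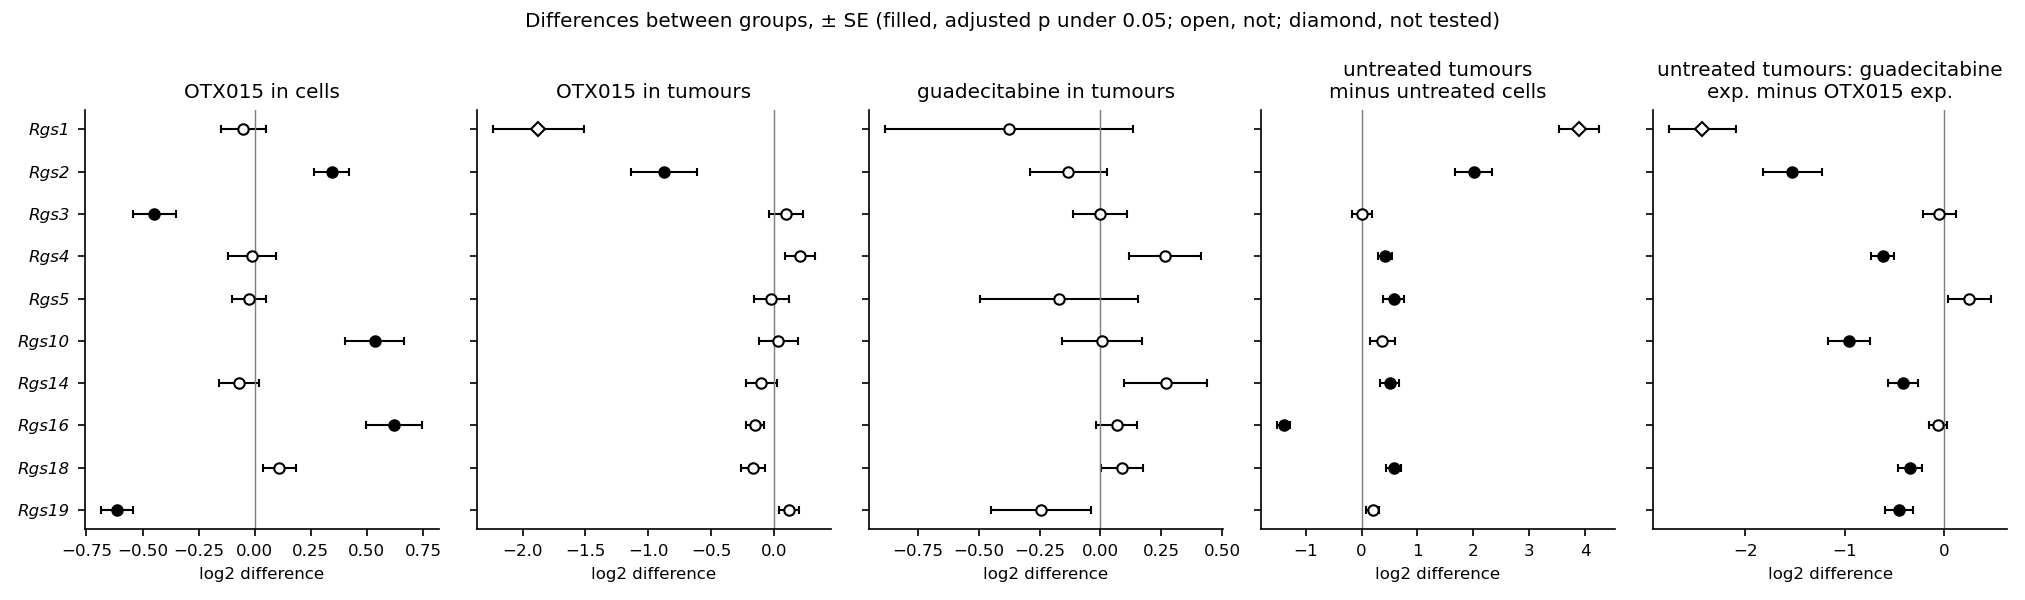
Log2 differences (horizontal axes, with different ranges) of the 10 members with SE bars, in 5 comparisons; filled points passed an adjusted p of 0.05, open points did not and diamonds mark Rgs1 where it was not tested. Rgs2, Rgs3, Rgs10, Rgs16 and Rgs19 are filled for OTX015 in cells and Rgs2 alone in tumours, no member passed with guadecitabine, and 6 of 9 passed between the untreated tumours of both experiments.

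The effect of OTX015 in tumours was set against that in cells as 1 contrast, in which 3 of the 9 members tested passed, against 32.7% of all genes (18% higher and 14.7% lower). Rgs19 fell in cells and did not in tumours, and its effect was 0.73 ± 0.13 higher in tumours (adjusted p = 6.34e-05). Its second probe set gave 0.61 and did not pass (adjusted p = 0.0652 over all probe sets). Rgs16 gave −0.77 ± 0.15 (adjusted p = 0.000136), with a rise in cells and a level below background in tumours; with both probe sets averaged it was −0.15 (adjusted p = 0.341). Rgs2 gave −1.22 ± 0.44 (adjusted p = 0.0321), a rise between dim values in cells and a fall in tumours, and this call was lost when any 1 of 5 cell samples was left out (highest adjusted p 0.0585). Rgs3 (0.54 ± 0.23, adjusted p = 0.0743) and Rgs10 (−0.50 ± 0.28, adjusted p = 0.175), which changed in cells, did not pass here, so their effects in cells and tumours were not shown to differ. Of the 3 members whose promoters are printed with the cell results, Rgs2 and Rgs16 passed and Rgs10 did not. For Rgs1 the 2 effects were −0.05 in cells, all below background, and −1.87 in tumours, and no test is given.

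Guadecitabine in tumours changed no member by the test. The count was 0 of 10 in limma at an adjusted p of 0.05, where 0% of all 17097 genes passed, and 0 of 10 members had an unadjusted p under 0.05, against 937 genes higher and 334 lower at that level. Rgs1 read 4.94, 5.13, 4.71, 5.66 and 5.73 in the 5 untreated tumours and 4.47, 6.63, 3.54, 5.27, 5.63 and 3.61 in the 6 treated ones. The treated tumours lay on both sides of the untreated ones, and 3 of the 6 were below background. The difference was −0.37 ± 0.51, with a 95% interval from −1.49 to 0.74 (adjusted p = 0.878).

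Rgs4 had the smallest adjusted p of the members, 0.721, with 3.74, 3.78, 3.75, 3.90 and 4.20 in untreated tumours and 4.19, 4.15, 4.67, 4.14, 3.93 and 3.75 in treated ones. Rgs5 reached 5.00 in untreated tumour 3 and 5.14 in treated tumour 4, and the other 9 tumours were at 4.24 or less. The differences of the members other than Rgs1 ranged from −0.24 for Rgs19 to 0.27 for Rgs14. The macrophage marker list had 0 of 12 called (median −0.37), and its mean ranged from 5.72 to 6.29 in untreated and from 4.63 to 6.22 in treated tumours. The lowest Rgs1 value, 3.54 in treated tumour 3, came with the lowest marker mean, 4.63. Treated tumours 3 and 6, whose arrays had the lowest SDs of this experiment (1.88 and 1.89), gave its lowest Rgs1 values (3.54 and 3.61). They also gave its highest Rgs14 values (5.82 and 5.50).

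The effect of OTX015 minus that of guadecitabine in tumours was tested for 9 members, and 0 passed in limma, where 3.56% of all genes did. At an unadjusted p under 0.05 the count was also 0, against 1026 genes higher and 2049 lower at that level. Rgs19 had the smallest adjusted p, 0.311 (0.36 ± 0.19). Rgs2 differed by −0.74 ± 0.39 (adjusted p = 0.325), so its fall with OTX015 was not shown to differ from its change of −0.13 ± 0.16 with guadecitabine. The values of Rgs1 were −1.87 with OTX015 and −0.37 with guadecitabine.

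The untreated tumours of both experiments differed in 6 of the 9 members tested. This comparison was added after the values had been seen, because the mean of Rgs1, for which no test is given here, in the untreated tumours of the guadecitabine experiment was below its value in 8 of the 10 OTX015-treated ones. It shares the 11 untreated tumours with the comparisons above. In the guadecitabine experiment 6 were lower and 0 higher, where 36.7% of all genes differed, 9.23% higher and 27.4% lower. The median of the 9 was −0.41 and that of all genes −0.12. What differed between the experiments besides their label is not given, so animals, time and array processing cannot be told apart.

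Rgs1 had a mean of 5.23 ± 0.45 (SD, n = 5) in the guadecitabine experiment and 7.67 ± 0.76 (SD, n = 11) in the OTX015 experiment, with no overlap. The difference of −2.43 ± 0.33 (SE) stands beside −1.87 with OTX015, and both rest on the same 11 untreated tumours. Rgs2 differed by −1.53 ± 0.30 (adjusted p = 0.00142). All 5 of its arrays lay below background, so its level there was at least 1.12-fold lower. Rgs10 read 5.05, 5.58, 5.11, 5.42 and 5.88 against 5.82 to 7.19 (median 6.20), a difference of −0.96 ± 0.21 (adjusted p = 0.00361). Rgs4 differed by −0.62 ± 0.11 (adjusted p = 0.00102) between dim values, with 0 of 5 arrays against 4 of 11 above background, which bounds its level only as at least 1.01-fold lower. Rgs19 differed by −0.45 ± 0.14 (adjusted p = 0.0213). Rgs14 (−0.41 ± 0.15, adjusted p = 0.0437) and Rgs18 (−0.34 ± 0.12, adjusted p = 0.0351, below background in both groups) also passed. Without the arrays of narrow spread Rgs18 did not pass (−0.27, adjusted p = 0.0595), and 5 of 9 were called. Rgs3, Rgs5 and Rgs16 did not. Without untreated tumour 1 or 3 of the guadecitabine experiment 3 of the 9 were called. In the values as deposited Rgs14 and Rgs19 did not pass (adjusted p = 0.104 and 0.125). Of the 12 macrophage markers 8 were lower and 0 higher (median −0.93), with a mean of 5.72 to 6.29 against 5.82 to 7.69, and of the 25 leukocyte Gi receptors 13 were lower.

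Within a group of tumours, where the drug does not differ, each member was set against the mean level of 4 marker lists (macrophage, T and NK cell, endothelial, pericyte), in 80 relations over untreated and OTX015-treated tumours. Of these, 26 passed a permutation test with 100000 resamples after adjustment, 17 in untreated and 9 in treated tumours. Rgs1 rose with the macrophage mean in untreated tumours, with Pearson r = 0.91 (permutation p = 4e-05, adjusted p = 0.00208) and Spearman rho = 0.90 (permutation p = 0.00038, adjusted p = 0.0152), n = 11. In treated tumours r was 0.80 (adjusted permutation p = 0.0141) and rho was 0.84, n = 10. Without the 2 tumours farthest from the median marker level, r was 0.85 in untreated and 0.68 in treated tumours.

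Rgs10 (r = 0.90), Rgs14 (r = 0.89), Rgs18 (r = 0.88) and Rgs2 (r = 0.88) also rose with the macrophage mean among untreated tumours. The adjusted permutation p was 0.00208 for Rgs10 and Rgs14 and 0.00768 for Rgs18 and Rgs2. Without the arrays of narrow spread Rgs2 and Rgs18 did not pass with that list (adjusted permutation p = 0.0726 for both). Among treated tumours Rgs1 was the 1 member to pass with it by Pearson r, and by Spearman rho Rgs10 passed too (rho = 0.82, adjusted permutation p = 0.0351, with r = 0.47 and adjusted permutation p = 0.253). Rgs5 rose with the pericyte mean in treated tumours (r = 0.80, rho = 0.88, adjusted permutation p = 0.0141, r = 0.77 without the 2 farthest). It was below background on all 10 of those arrays. In untreated tumours Rgs5 showed no such relation (r = −0.06, rho = −0.13, adjusted permutation p = 0.868). Rgs1 and Rgs2 rose with each other, with r = 0.88 in untreated (permutation p = 0.00011, adjusted p = 0.00066) and 0.83 in treated tumours (permutation p = 0.00341, adjusted p = 0.00682). This relation is 1 of a family of 6, added after the values had been seen, that joins Rgs1, Rgs2 and the spread of the array. These relations were not particular to 1 list. In untreated tumours Rgs1 also passed with the pericyte mean (r = 0.83, adjusted permutation p = 0.013), the endothelial mean (r = 0.77, adjusted permutation p = 0.0182) and the T and NK cell mean (r = 0.70, adjusted permutation p = 0.0491), and in treated tumours it passed with none of these 3. Rgs10 had r = 0.93 and Rgs18 r = 0.93 with the endothelial mean in untreated tumours, and Rgs10 r = 0.92 with the T and NK cell mean, whose markers lay mostly below background.

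The spread of the array moved with these values. Among untreated tumours Rgs1 had r = −0.86 (permutation p = 0.00098, adjusted p = 0.00294) and rho = −0.98 with the array's SD (p = 1e-05, the smallest that the resamples can give), whereas among treated tumours r was −0.16 (permutation p = 0.654, adjusted p = 0.765). The 2 untreated tumours farthest from the median SD are those of narrow spread, and without them r was still −0.83. Rgs2 had r = −0.71 with the SD among untreated tumours (adjusted permutation p = 0.0195) and −0.11 among treated ones (adjusted permutation p = 0.765). Whether the spread has a part in the relations with marker lists was not tested. Without the 3 arrays of narrow spread 7 of the 80 relations passed, among them Rgs1 with the macrophage mean in untreated tumours (r = 0.85, adjusted permutation p = 0.0266, n = 9). Its relation with the pericyte mean was then r = 0.90 (adjusted permutation p = 0.0056), and those with the endothelial and the T and NK cell means did not pass (adjusted permutation p = 0.327 and 0.487). Rgs18 with the endothelial mean passed (adjusted permutation p = 0.0173), and Rgs10 did not with the endothelial or the T and NK cell mean (adjusted permutation p = 0.0684 and 0.0726). In treated tumours Rgs1 with the macrophage mean then gave r = 0.79 and did not pass (adjusted permutation p = 0.0684, n = 9). When every relation was recomputed without its 2 farthest tumours, 0 of 80 passed after adjustment.

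**Figure D3:**
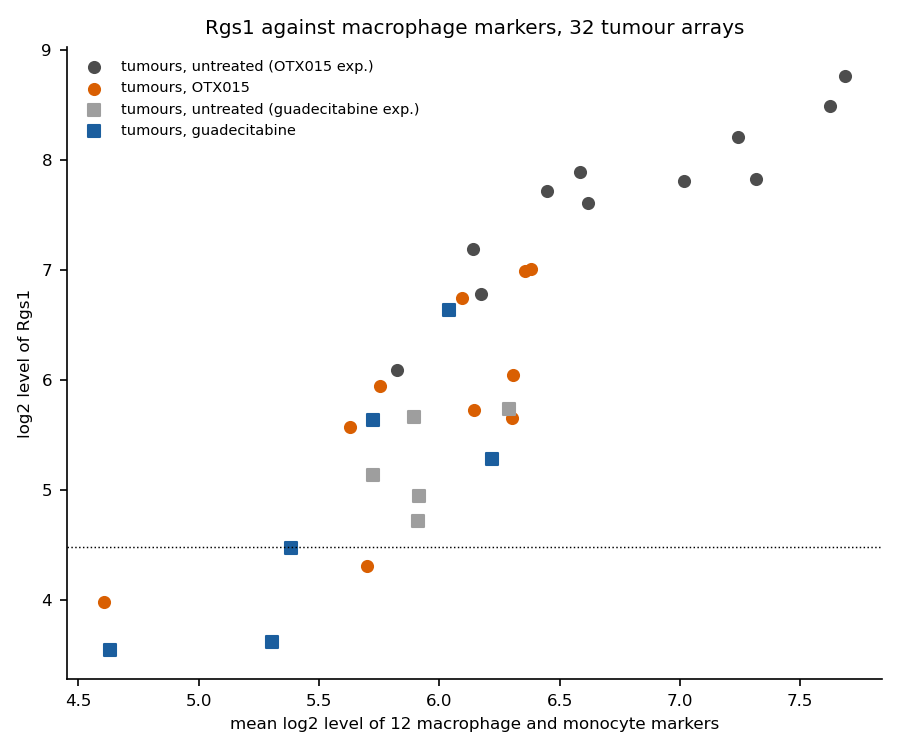
Log2 level of Rgs1 (vertical axis) against the mean log2 level of 12 macrophage and monocyte markers (horizontal axis) on the 32 tumour arrays, by group, with the background of 4.47 as a dotted line. Within untreated and OTX015-treated tumours of 1 experiment Rgs1 rises with the markers (r = 0.91 and 0.80), and the untreated tumours of the guadecitabine experiment lie between 4.71 and 5.73.

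The genes most like each member were found over the 32 tumour arrays after each group's mean was subtracted, among genes above background, and their correlations are given as descriptions across arrays that share depth and scale. For Rgs1 they were the complement genes C1qb (r = 0.86), C1qc (0.85) and C1qa (0.83), the lipopolysaccharide co-receptor Cd14 (0.83) and the antibody receptor Fcgr3 (0.83). For Rgs2 they were the lysosomal membrane gene Cd68 (0.81) and Bcl2a1a (0.80), and Rgs1 came next (0.78). Rgs10 was most like Flt3, a receptor kinase of dendritic cell precursors (0.85), and Sh3bgrl3 (0.83), and Rgs5 like Igfbp3 (0.84) and Plvap, an endothelial gene (0.79). Rgs18 was most like Snx30 (0.80) and Gm2a (0.78), and Rgs19 like 2210016F16Rik (0.85) and Nbn (0.85). Rgs3 (0.67 with Bad and Pex19) and Rgs16 (0.66 with Eno1b and Wdr47) had weaker nearest genes. Rgs14 had the closest ones, 4933427D06Rik and Gstm3 (both 0.95), and Rgs4 had Keg1 (0.91) and Mmab (0.88). Both members were highest in their group on the array of lowest SD in 3 tumour groups. These were untreated tumour 11 of the OTX015 experiment (Rgs14 6.13, Rgs4 5.08), OTX015-treated tumour 4 (5.64 and 5.36) and guadecitabine-treated tumour 3 (5.82 and 4.67). The part of the array's spread in these correlations was not tested.

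Members with several probe sets did not always give 1 answer. With OTX015 in cells, 8 of the 23 probe sets passed (3 higher, 5 lower), where 29.8% of all 45141 did. Rgs16 was the 1 member with probe sets called in opposite directions there. In tumours 5 of the 22 tested passed (2 higher, 3 lower), where 16.7% of all probe sets did, and Rgs2 was the 1 member with opposite calls. Rgs4's dimmest probe set passed at 0.13 (adjusted p = 0.0188) while its brightest did not (0.21, adjusted p = 0.254). Both Rgs19 probe sets fell in cells and neither passed in tumours. Rgs5, with 4 probe sets, had none called with OTX015 in cells or tumours.

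**Figure D4:**
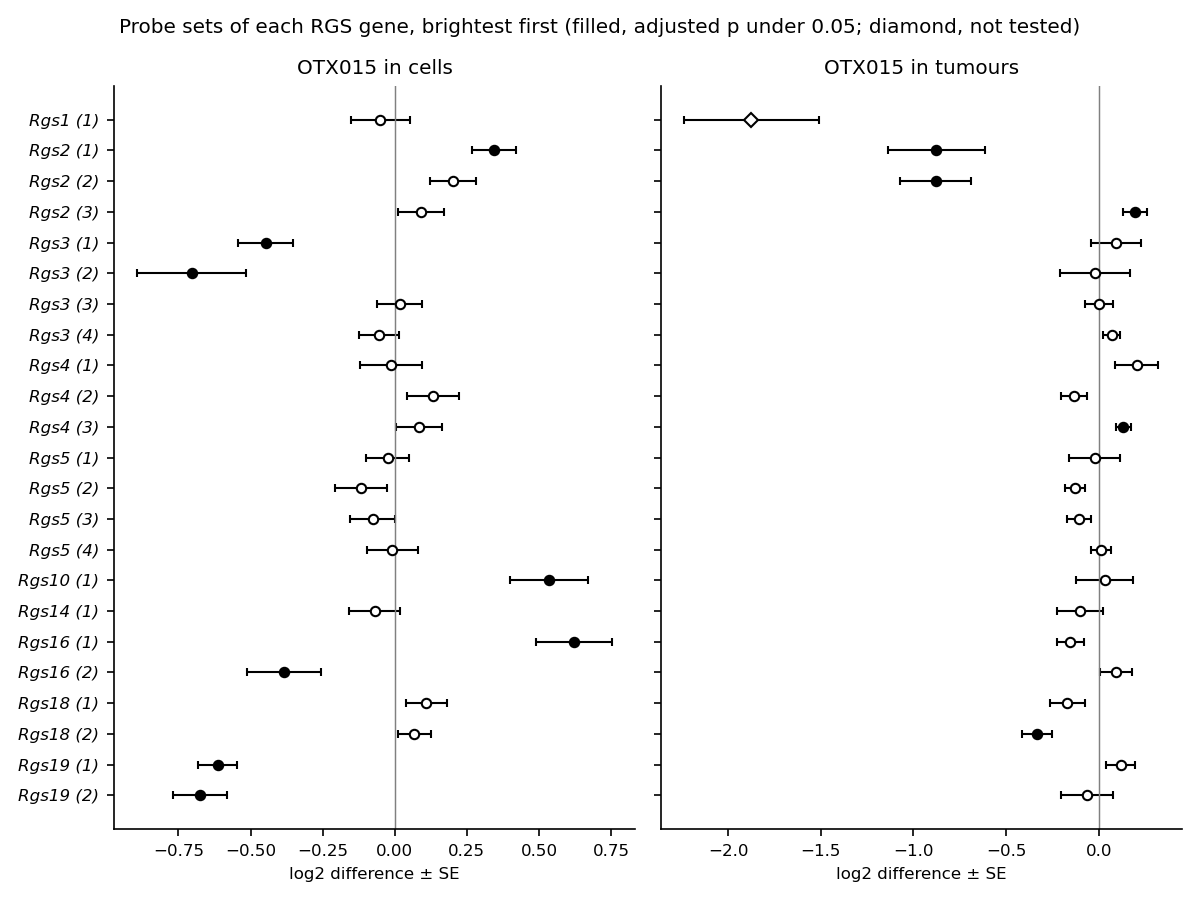
Log2 differences with SE (horizontal axes) for all 23 probe sets of the 10 members, brightest first within a gene (vertical axis), with OTX015 in cells on the left and in tumours on the right. Filled points passed an adjusted p of 0.05 over all probe sets; the 2 Rgs16 probe sets point in opposite directions in cells (0.62 and −0.38), and 2 of 3 Rgs2 probe sets fell by 0.88 in tumours.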

How the data were processed

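The deposited table holds log2 expression values for 40 arrays, made by the authors with RMA; the submitters' processing notes also name the Transcriptome Analysis Console, and versions are not given in the sources used here. RMA corrects background, equalises arrays processed together and sums up the probes of each set. All 40 arrays were quantile-normalized together, since those deposited for OTX015-treated tumours were lower throughout. Names came from GEO's platform annotation: of the probe sets, 28898 named 1 gene, 551 several and 15692 were unnamed here. A gene was represented by its brightest probe set by mean over the 40 arrays.

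Comparisons used limma 3.58.1's lmFit and eBayes functions, two-sided (R 4.3.3), with Benjamini-Hochberg adjustment over 17097 genes and a call at an adjusted p under 0.05. Each fit used the arrays of its own groups. No difference between groups that uses the tumours Rgs1 was picked from is tested for Rgs1; relations within a group are. The fit was tested on simulated data with 200 changed genes. Correlations used permutation tests run with numpy 2.4.6, with ranks from scipy 1.17.1. The relations with marker lists were adjusted over all 80, and the added family of 6 was adjusted on its own. Intervals are 95%. Arrays give no read depth, so their number limits the precision.

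The 10 members and the 19 gene lists (8 of the pathway, 11 of cell type markers) were chosen with earlier results of these data known. All members are named. From a list, up to 4 genes a comparison with the smallest adjusted p among those called could be named, and as most alike 5 genes for Rgs1 and up to 2 for the other members; Rgs1 beside Rgs2 in that list was named after its value was seen.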

Additional observations from a re-analysis of the deposited data

Results flagged for a closer look

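Rgs3 in the untreated tumours of the guadecitabine experiment had 1 tumour, replicate 5, at a log2 level of 6.28, above the other 4, which lay between 6.02 and 6.07. Rgs10 in OTX015-treated tumours had replicate 4 at 6.97, above the other 9, which lay between 5.98 and 6.51; this is 1 of the 3 arrays of narrow spread. Of 50 sets of 4 to 10 values checked for such a gap, these 2 had one, and chance gives about 1 in 20. Rgs2, Rgs16 and Rgs19 had effects of OTX015 that differed between tumours and cells, by −1.22, −0.77 and 0.73 on the log2 scale, by the contrast of 4 group means described above.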

How the results depend on the processing

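The number of members called was recomputed under other settings. For OTX015 in cells it was 5, became 3 without dim genes and 2 with all 6 groups in 1 fit, and stayed at 5 whichever array was left out. For OTX015 in tumours it was 1, became 4 with the deposited values, 0 without dim genes, 2 with the mean of all probe sets and 0 without the 3 arrays of narrow spread, a setting chosen after seeing the data, and was 1 whichever array was left out. For guadecitabine it was 0 under every setting run. For untreated tumours against untreated cells it was 6, became 1 without dim genes and ranged from 3 to 7 with 1 array left out. Against the untreated tumours of the guadecitabine experiment Rgs4 turned to −0.20 and Rgs10 to −0.59. For OTX015 in tumours minus cells it was 3, became 5 with the deposited values and 1 without dim genes, and ranged from 2 to 4 with 1 array left out. For OTX015 minus guadecitabine it was 0, became 3 with the deposited values, and was 0 whichever array was left out. In the deposited values 55.2% of all genes were called for OTX015 in tumours, and both of these contrasts use those arrays. Their added calls are therefore not read as a result about the members. For the untreated tumours of both experiments it was 6, became 3 without dim genes and ranged from 3 to 6 with 1 array left out. Without dim genes, members below background were not tested. The cause of the other changes was not tested. The relations with marker lists that passed were 26, 7 without the 3 arrays of narrow spread and 0 without the 2 farthest tumours, which leaves fewer arrays.

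Replicate numbers did not pair the samples: deviations of same-numbered samples correlated at −0.10 to 0.15 in cells, −0.54 to 0.43 in the OTX015 tumours and −0.44 to −0.05 in the guadecitabine tumours. With the number as a block, the replicate block gave 5 members called in cells, 1 in OTX015 tumours, 0 with guadecitabine, 4 for untreated tumours against cells, 3 for tumours minus cells, 0 for OTX015 minus guadecitabine and 3 for the untreated tumours of both experiments. Of 2045 recomputed member values 1977 kept their direction and side of the threshold or were uncalled on both sides, 47 lost and 18 gained a call, 2 turned and 1, for Rgs1 with no test, moved by more than its SD. Members below background, 5 of 10, are limited by their dim signal.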
